A study of Mus musculus with 53 samples.

Results

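GATA6 binding that was present both in SOX2 and GATA6 double-positive (DP) embryonic stem cells (ESCs) and in naive extra-embryonic endoderm (nEnd) cells, at places without a SOX2 peak in DP, SOX2+, 2iLIF or NACL cells, was characterised from CUT&RUN peak lists. CUT&RUN tethers a nuclease to an antibody bound on chromatin, so that short DNA fragments around a factor or a modified histone are released and sequenced. GATA6 peaks of 3 DP and 2 nEnd libraries were merged wherever they overlapped by at least 1 bp, which gave 39910 regions. The sites described here were chosen by these GATA6 and SOX2 peak calls: a region needed peaks of at least 2 DP libraries and of both nEnd libraries, and no peak of any of the 10 SOX2 libraries, none of which was from nEnd. Of all merged regions, 1089 (2.73%) met this rule, and they are called early kept sites below. The words early and kept name an overlap between separate cultures, since no cells were followed from DP to nEnd.

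All libraries came from mouse E14JU ESCs of the 129/Ola background that carry a SOX2-GFP and a GATA6-mCherry reporter (SGGC cells), as clones B9 and B12. DP and SOX2+ cells were sorted by FACS from the same KOSR cultures, labelled as clone B12, in experiments named A, A1 and B. By these labels everything measured in KOSR rests on 1 clone, whereas the authors' methods name both B9 and B12 for every CUT&RUN experiment. The other cultures were the naive pluripotent media 2iLIF and NACL and the endoderm culture nEnd, each grown from B9 and B12, except that both nEnd H3K4me1 libraries are labelled B9. Each condition had 2 libraries of H3K27ac and 2 of H3K4me1, apart from DP cells, which had 1 of each and therefore entered no test. Another H3K27ac and another H3K4me1 library of experiment B carry labels that name different sorted populations and were assigned to no group. The SOX2 library of NACL B12 has IgG in 1 of its labels and was taken as SOX2 by its title and antibody, and without it the rule kept 1094 sites. The DP GATA6 library of experiment A carries a tag in its title that the sources used here do not explain.

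GATA6 is a zinc finger transcription factor that recognises GATA sequences and is required for primitive endoderm (PrE), the extra-embryonic lineage that separates from the epiblast in the inner cell mass. SOX2 is a core pluripotency factor of the epiblast. H3K4me1 is a histone mark found at primed and active enhancers, and H3K27ac is found at active enhancers and promoters, so the presence of both is a common description of an active enhancer.

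The GATA6 signal maximum of these sites lay almost on top of GATA sequences. Examples are shown as 120 bases of the plus strand of GRCm38 centred on the maximum (the anchor), with every GATA string in capitals. A GATA string is here GATA that follows A or T and is followed by A or G, on either strand. The first 3 are the sites with the highest mean rank of GATA6 signal over the 5 libraries, named by their nearest protein-coding gene, and the other 5 lie next to genes of PrE transcription factors and basement membrane proteins. They are Car12 at chr9:66698812-66698931, Ryk at chr9:102924853-102924972, Prpf4b at chr13:34828113-34828232, Nid2 at chr14:19759880-19759999, Lamc1 at chr1:153274643-153274762, Sparc at chr11:55392638-55392757, and a pair of sites upstream of Foxq1, at chr13:31492024-31492143 and chr13:31531304-31531423.
Car12: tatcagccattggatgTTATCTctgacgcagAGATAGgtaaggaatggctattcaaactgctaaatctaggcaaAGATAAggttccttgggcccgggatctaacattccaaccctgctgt
Ryk: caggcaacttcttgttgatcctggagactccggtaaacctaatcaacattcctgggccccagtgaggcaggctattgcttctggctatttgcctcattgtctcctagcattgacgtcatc
Prpf4b: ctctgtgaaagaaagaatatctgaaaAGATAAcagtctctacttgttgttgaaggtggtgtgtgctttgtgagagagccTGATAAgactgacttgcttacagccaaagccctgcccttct
Nid2: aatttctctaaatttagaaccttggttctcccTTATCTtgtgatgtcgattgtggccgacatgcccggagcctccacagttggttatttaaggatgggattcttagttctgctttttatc
Lamc1: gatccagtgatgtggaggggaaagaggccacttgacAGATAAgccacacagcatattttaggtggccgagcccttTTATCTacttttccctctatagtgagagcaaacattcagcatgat
Sparc: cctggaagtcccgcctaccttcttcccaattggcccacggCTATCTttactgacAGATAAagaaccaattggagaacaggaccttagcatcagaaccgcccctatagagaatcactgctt
Foxq1 (64050 bp upstream): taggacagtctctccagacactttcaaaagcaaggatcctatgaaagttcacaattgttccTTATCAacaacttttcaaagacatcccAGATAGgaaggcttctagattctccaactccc
Foxq1 (24770 bp upstream): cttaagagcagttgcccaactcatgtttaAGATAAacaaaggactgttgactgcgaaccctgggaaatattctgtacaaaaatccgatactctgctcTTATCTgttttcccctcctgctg
The Car12 window held 3 of these strings, and the Prpf4b, Lamc1, Sparc and both Foxq1 windows held 2. The Nid2 window held 1. The Ryk window held none within 120 bases, and 3 in the 300 bases around its anchor.

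Among all 1089 early kept sites, 1077 (98.9%, exact 95% interval 98.1 to 99.4) had a GATA string within 300 bp around the anchor. The share was 86.7% over all merged GATA6 regions and 42.1% in 2178 windows of the same size placed 10 kb to either side of the early kept sites. The nearest string lay at a median of 14 bp from the anchor, and 1008 sites (92.6%) had one within 50 bp. Early kept sites often held several: 646 (59.3%) had 3 or more, against 9996 (25%) of all merged regions, and 12 (1.10%) had none.
Classes of GATA6 regions that share part of the rule differed in these strings. Late sites (13552 regions with peaks of both nEnd libraries, of no DP library and no SOX2 library) held a GATA string in 91.2% and 3 or more in 26.7%. Transient sites (388 regions with peaks of at least 2 DP libraries, of no nEnd library and no SOX2 library) held one in 94.8% and 3 or more in 49.5%. Early kept sites with SOX2 (1123 regions that met the GATA6 rule but touched a SOX2 peak) held one in 96.9% and 3 or more in 45.2%. The string AGATAA alone, 1 of these forms, was found in 86.3% of early kept sites, 62.1% of late sites, 83.8% of transient sites and 80.6% of early kept sites with SOX2, against 58.6% over all regions. GATA6 signal ranks also differed between these classes: 73.8% of early kept sites (804) but 42.9% of late sites (5812) lay in the stronger 50% of both nEnd lists. Within that stronger part, chosen after the values were seen, AGATAA was found in 86.4% of early kept and 67.1% of late sites, and the mean number of GATA strings was 2.96 and 2.08. Median GC content of the windows was similar, at 45.3% in early kept sites, 45% in late sites and 44.3% in the windows placed 10 kb away.

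**Figure D1:**
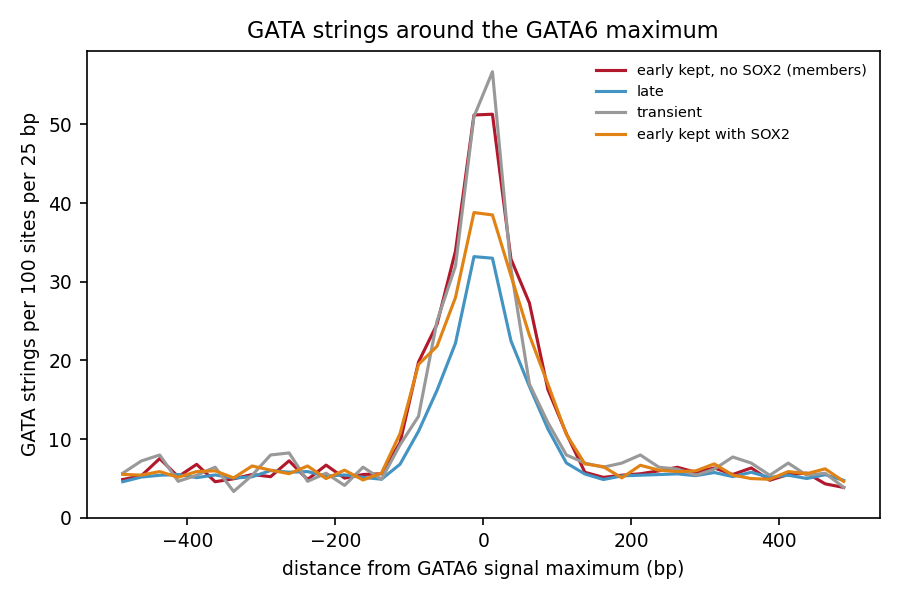
Number of GATA strings (GATA after A or T and before A or G, either strand) per 100 sites in bins of 25 bp, against the distance in bp from the GATA6 signal maximum, for early kept, late, transient and early kept sites with SOX2. In the bin just right of the maximum, early kept sites held 51.3 strings per 100 sites, transient sites 56.7, sites with SOX2 38.5 and late sites 33.0, and all lines lie under 10 beyond 150 bp.

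Strings of other factors were searched in the same 300 bp windows on both strands. The SOX string CATTGT was found in 20.8% of early kept sites (exact 95% interval 18.4 to 23.3), below the 29% of all merged regions, the 32.5% of late sites and the 33.9% of early kept sites with SOX2, and above the 18% of transient sites and the 14.9% of the windows 10 kb away. AP-1 is a dimer of basic leucine zipper proteins, and its string TGANTCA was found in 10.9%, against 2704 (20%) of late, 5.93% of transient and 16.8% of all regions. TEAD factors act in Hippo signalling, and GGAATG was found in 26.9%, against 23.6% of late, 22.2% of transient and 25.4% of all regions. Early kept sites with SOX2 held it in 35.5%. The FOX string TGTTTAC, of forkhead factors used in endoderm, was in 8.54% of early kept sites and in 9.33% of all regions. Strings of pluripotency factors were rare everywhere: OCT (ATGCAAAT) in 1.93%, ESRRB (TCAAGGTCA) in 1.47% and KLF (CCACACCC) in 5.60% of early kept sites, against 2.96%, 1.25% and 4.92% of all regions. A matching string is a description of the sequence and does not show that a factor binds there.

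The rule itself sets which libraries hold these sites. All 1089 had a peak in the DP GATA6 library of experiment A, 1066 (97.9%) in that of A1 and 334 (30.7%) in that of B, whose list was the shortest of the 3. Peaks of exactly 2 DP libraries were present at 778 sites and peaks of all 3 at 311, and 755 of the former combined A with A1. Without the A or the A1 library the rule, which then asked for both remaining DP libraries, kept 311 or 334 sites, and without that of B it kept 1066. Peak signal is on a scale of its own in each library, so it was read only as a percentile among the peaks of that library. At early kept sites, median percentiles of total GATA6 signal were 77.4 in DP A, 52.0 in DP A1 and 46.4 in DP B, among sites with a peak there, and 75 and 88.4 in nEnd B9 and B12. Late sites had medians of 53.7 and 61.6 in the same nEnd libraries.

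Just outside the rule lay 1279 regions with both nEnd libraries and 1 DP library, 302 with at least 2 DP libraries and 1 nEnd library, and 258 that met the GATA6 rule and touched peaks of 1 SOX2 library. In DP A, sites just inside, with exactly 2 DP libraries, had a median percentile of 69.5, and those just outside, with 1 DP library, 38.7. In nEnd B12, the medians were 87.1 just inside and 80.2 just outside. Of the 2212 regions that met the GATA6 part of the rule, 49.2% touched no SOX2 peak. Of the others, 915 touched a SOX2 peak in the DP library of A1, 784 in that of A and 209 in that of B, the lowest of the 10 libraries, against 266 to 549 in each of the 7 libraries of SOX2+, 2iLIF and NACL cells.

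Early kept sites were mostly distal to transcription starts. Their median distance to the nearest start of a protein-coding transcript was 13339 bp (exact 95% interval of the median 12400 to 15279 bp), and 84 of them (7.71%) lay within 1 kb of a start, against 11.5% of all merged regions. A further 366 (33.6%) lay between 1 and 10 kb away, 430 (39.5%) between 10 and 50 kb, 110 (10.1%) between 50 and 100 kb and 99 (9.09%) farther. Outside the 1 kb around starts, 495 anchors (45.5%) were intergenic, 485 (44.5%) lay in introns, 5 in coding exons, 8 in untranslated regions and 12 in other exons of protein-coding genes. Late sites were similarly placed, with a median of 14152 bp and 9.84% within 1 kb. Transient sites lay farther out, at a median of 30302 bp, with 25.3% over 100 kb from a start. Early kept sites with SOX2 had a median of 16058 bp.

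**Figure D2:**
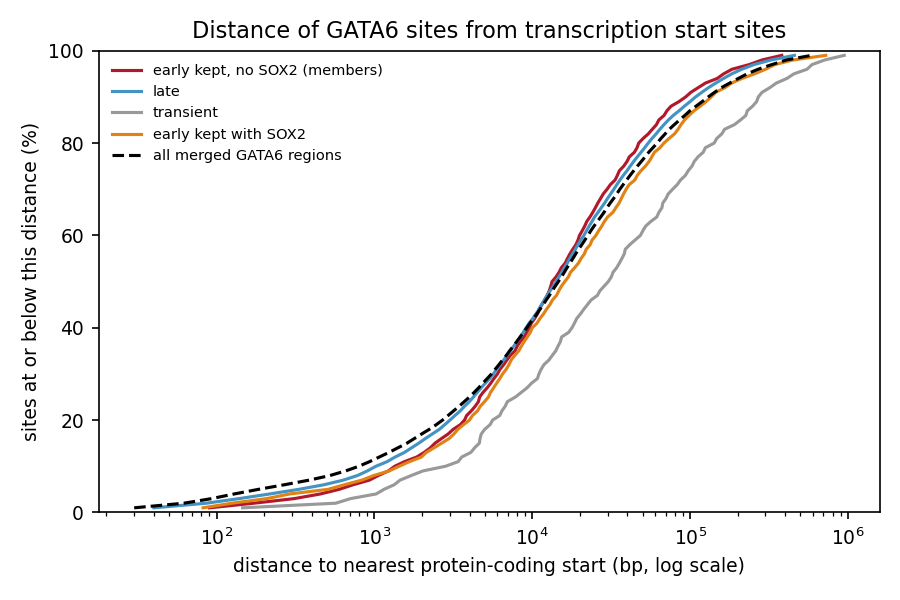
Cumulative share of sites (%) against the distance in bp, on a log scale, from the anchor to the nearest protein-coding transcription start, for the 4 site classes and for all merged GATA6 regions. The line of early kept sites crosses 50% at 13339 bp, close to late sites at 14152 bp, and that of transient sites at 30302 bp.

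The sites were spread over many genes. They had 963 different nearest protein-coding genes, of which 850 had 1 early kept site, 102 had 2 and 11 had at least 3. Only 75 sites (6.89%) had another within 10 kb and 182 (16.7%) within 50 kb. The genes with most were Etl4 and Magi1, each with 4, followed with 3 each by Diaph2, Efnb2 and Fgfr2 among others, the latter 3 taken in alphabetical order. The count was not scaled by gene length: the annotation spans 900934 bp at Etl4, 608463 bp at Magi1, 716093 bp at Diaph2, 43809 bp at Efnb2 and 2960900 bp at Fgfr2. The Fgfr2 span was taken to come from a readthrough transcript, so it may overstate the length of that gene. Etl4 encodes a cytoskeletal protein, Magi1 a junctional scaffold, Diaph2 an actin-nucleating formin and Efnb2 an ephrin ligand. All 3 Diaph2 sites and all 3 Efnb2 sites carried H3K4me1 in DP cells and in both nEnd libraries. At Magi1, a site 16821 bp upstream had GATA6 percentiles of 99.1 and 99 in nEnd B9 and B12 and 93.5 in DP A, yet carried neither mark in any library of any condition.

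H3K4me1 was present at most of these sites in DP cells. The DP library overlapped 941 of 1089 early kept sites (86.4%, exact 95% interval 84.2 to 88.4), against 54.1% of all merged regions, 44.9% of late sites, 70.6% of transient sites and 94.1% of early kept sites with SOX2. In nEnd, H3K4me1 was found at 75.3% and 60.6% of early kept sites in the 2 libraries. In pluripotent cultures the share was 20.1% and 36.9% in 2iLIF B9 and B12, 25.3% and 19.2% in NACL B9 and B12, and 29.4% and 35.4% in SOX2+ cells of experiments A and B. Both nEnd libraries were above all 6 pluripotent libraries. The means were 68.0% ± 10.4 (SD, n = 2) in nEnd and 27.7% ± 7.51 (SD, n = 6) in pluripotent cells, a difference of 40.3 percentage points with p = 0.0714 in a two-sided exact permutation test over libraries, the smallest p that 2 against 6 libraries allow. Other GATA6 regions were also covered more in nEnd, with means of 53.2% against 24.7% over all merged regions and 62.5% against 19.5% at late sites. Within clone B9 and within the set of libraries whose titles share a number, the order was the same: the 1 nEnd library of that set had 60.6%, and its NACL libraries 19.2% and 25.3%.

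When a condition was required to show H3K4me1 in both of its libraries, the counts were 217 early kept sites (19.9%, with 18% of all merged regions) in 2iLIF, 172 (15.8%, with 13.2%) in NACL, 291 (26.7%, with 23.8%) in SOX2+ cells and 627 (57.6%, with 42.3%) in nEnd. The shares in pluripotent cells were thus within a few percentage points of the background of GATA6 regions, and those of DP and nEnd cells above it. Similar regions were above it too. The 1279 regions with 1 DP and both nEnd libraries carried H3K4me1 in 80.6% in DP cells and 56.8% in both nEnd libraries. Late sites carried it in 50.8% in both nEnd libraries. SOX2+ and DP cells came from the same cultures: 531 early kept sites (48.8%) carried H3K4me1 in the DP library and in no SOX2+ library, against 42.3% of transient sites and 21.9% of all merged regions, and 4 (0.367%, against 1.93%) the reverse. The DP list held 130749 H3K4me1 peaks, against 58085 and 78354 in SOX2+ cells. With every H3K4me1 list held to its strongest 18627 peaks, the DP share was 39.7%, and those of SOX2+ cells were 16.6% and 17.7%. Under the same setting nEnd had 55.3% and 60.6%, and the 4 libraries of 2iLIF and NACL had 14.6% to 22.3%. Late sites then had 53.9% and 52.7% in nEnd, close to early kept sites, and 16.3% in DP cells. Transient sites had 27.3% in DP cells and early kept sites with SOX2 62.0%.

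Many sites had no H3K4me1 in the pluripotent cultures. At 549 early kept sites (50.4%) none of the 6 pluripotent libraries had an H3K4me1 peak, against 54.5% of all merged regions and 61.3% of late sites. Of these 549, 414 carried it in DP cells, which is 38.0% of early kept sites, against 34.3% of transient sites and 15.4% of all regions. In DP cells and both nEnd libraries it was present at 228 of the 549. The latter make up 20.9% of early kept sites, 7.81% of late sites and 6.20% of all regions. By condition, the most frequent patterns of H3K4me1 calls were DP with nEnd (326 sites, 29.9%, against 11.1% of all regions), DP alone (249, 22.9%, against 15%), no condition (107, 9.83%, against 31.3%) and all 5 conditions (100, 9.18%, against 6.92%).

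H3K27ac showed another order of conditions. It was found at 52.0% and 56.5% of early kept sites in nEnd B9 and B12, at 46.1% in the DP library and at 7.53% and 8.36% in SOX2+ cells of experiments A and B. In 2iLIF the shares were 49.9% and 60.1%, and in NACL 49.2% and 61.7%, in B9 and B12. The H3K27ac lists of 2iLIF and NACL held 210904 to 401853 peaks, which covered 13.2% to 21.6% of the genome, while those of SOX2+ cells held 13514 and 14722 and those of nEnd 21394 and 20072. Means were 54.2% ± 3.18 (SD, n = 2) in nEnd and 39.5% ± 25 (SD, n = 6) in pluripotent cells, a difference that did not exceed the spread between libraries (14.8 percentage points, exact permutation p = 0.714, two-sided). SOX2+ cells had 7.94% ± 0.584 (SD, n = 2) and the naive media 55.2% ± 6.61 (SD, n = 4), which did not overlap, with the smallest p that 2 against 4 libraries allow (exact permutation p = 0.133).

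The number of H3K27ac peaks differed between conditions together with these shares, and its part in the result was not tested beyond equal list lengths. With every H3K27ac list held to its strongest 13514 peaks, early kept sites were covered at 41.4% and 48.4% in nEnd, 18.4% in DP cells, 7.53% and 7.44% in SOX2+ cells, and 16.1% to 20% in the 4 libraries of 2iLIF and NACL. Both nEnd libraries were then above all 6 pluripotent ones, by 30.7 percentage points on average (exact permutation p = 0.0714). Late sites differed more under this setting, with means of 53.5% in nEnd and 11% in pluripotent cells. With all peaks and both libraries required, H3K27ac was called at 461 sites (42.3%, with 42.1% of all merged regions) in 2iLIF, 469 (43.1%, with 42.5%) in NACL, 57 (5.23%, with 7.20%) in SOX2+ cells and 510 (46.8%, with 45.3%) in nEnd, shares close to the background in each. The DP library was the exception, with 502 sites (46.1%) against 28.6% of all merged regions. Other sites with GATA6 in DP cells were also above that background, at 36.9% of transient sites, 39.1% of the 1279 regions with 1 DP and both nEnd libraries and 80.6% of early kept sites with SOX2.

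**Figure D3:**
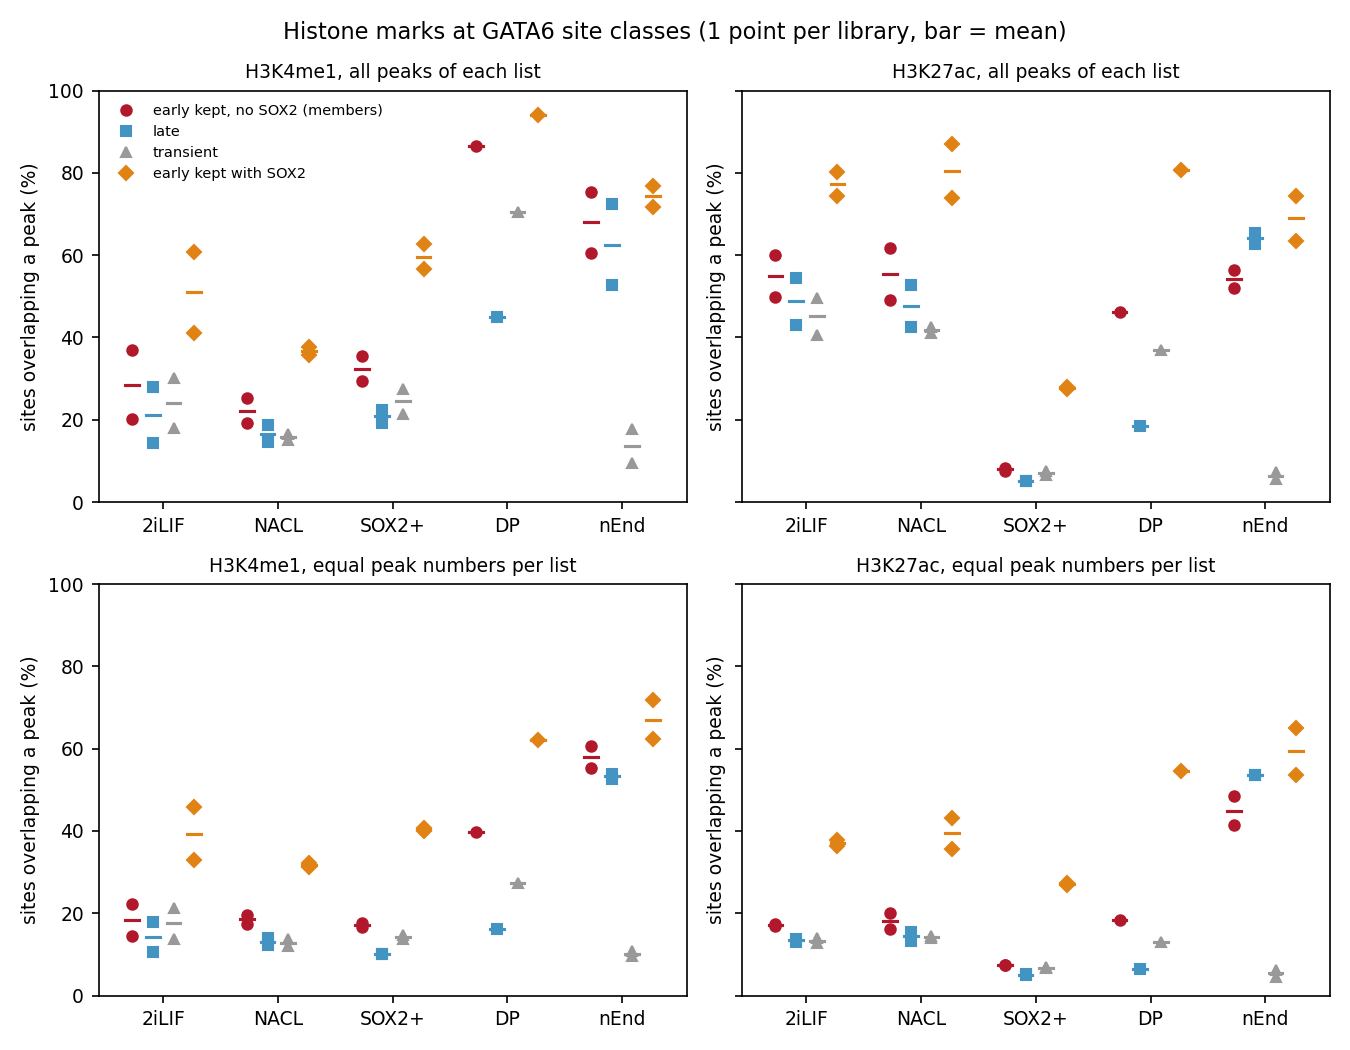
Share of sites (%) that overlap an H3K4me1 (left) or H3K27ac (right) peak in each library of 2iLIF, NACL, SOX2+, DP and nEnd cells, for early kept, late, transient and early kept sites with SOX2; each point is 1 library and bars are means. Upper panels use all peaks, lower panels the strongest 18627 (H3K4me1) or 13514 (H3K27ac) peaks of each list. Early kept sites (circles) reach 86.4% for H3K4me1 in DP cells and 60.6% to 75.3% in nEnd in the upper left panel.

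Both marks together were present in DP cells at 489 early kept sites (44.9%, with 25.4% of all merged regions) and in both libraries of each mark in nEnd at 390 (35.8%, with 28.3%). The overlap of these states was 244 sites (22.4%, against 10.5% of all regions). Another 127 sites (11.7%, against 9.76% of all and 14.1% of late regions) had H3K4me1 alone in DP cells and both marks in nEnd, and 114 (10.5%, against 5.54% of all, 28.4% of transient and 14.6% of early kept sites with SOX2) had both marks in DP cells and no H3K27ac peak in either nEnd library. In DP cells 452 sites (41.5%) carried H3K4me1 without H3K27ac, 13 (1.19%) the reverse and 135 (12.4%) neither mark, against 28.7%, 3.28% and 42.6% of all regions. In nEnd, 171 sites (15.7%, against 14.4% of late sites and 23.6% of all regions) had neither mark in any library although GATA6 was called in both.

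Marks varied with the distance to genes, at late sites as well. The 84 sites within 1 kb of a start carried H3K27ac in both nEnd libraries in 81.0% and H3K4me1 in 39.3%, while the 1005 sites farther away carried them in 44.0% and 59.1%. At late sites the shares were 78.6% and 31.0% within 1 kb and 53.9% and 53.0% farther away. In DP cells H3K4me1 hardly differed, at 88.1% and 86.3%. Sites with peaks of all 3 DP GATA6 libraries had more of both marks in DP cells than those of 2 libraries, with 95.2% against 82.9% for H3K4me1 and 57.2% against 41.6% for H3K27ac. In nEnd the same groups had 57.2% and 57.7% for H3K4me1 and 46.6% and 46.9% for H3K27ac.

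Within pluripotent libraries, early kept sites carried more marks than late and transient sites and fewer than early kept sites with SOX2. This did not extend to all regions without SOX2: the 1279 with both nEnd libraries and 1 DP library carried H3K27ac in both libraries of 2iLIF, NACL and SOX2+ cells in 46.3%, 46.0% and 6.49%, and H3K4me1 in 20.8%, 15.6% and 27.1%. The paired difference to late sites was 8.19 ± 3.05 percentage points for H3K4me1 and 5.59 ± 2.50 for H3K27ac (SD, n = 6 libraries), and to transient sites 6.22 ± 2.63 and 8.07 ± 6.84. To early kept sites with SOX2 it was -21.4 ± 6.02 and -22.3 ± 2.73. Each of the 6 differences had the same sign in 6 of 6 libraries. Each had an exact two-sided sign-flip p of 0.0312, the smallest that 6 libraries allow. After Benjamini-Hochberg adjustment over the 6 comparisons it was also 0.0312. The class with SOX2 was defined partly by SOX2 peaks of these same cultures. Its differences are therefore not independent of the rule, and their p-values are no separate support. Early kept sites were also wider than late and transient sites (median 553 bp against 490 and 339) and narrower than those with SOX2 (661 bp). Held to 500 bp around the anchor, the 6 differences kept their signs and their adjusted p. The difference to transient sites in H3K27ac no longer passed when only sites over 1 kb from a start were used (7.21 percentage points, adjusted exact p = 0.0938) or when all 3 DP GATA6 libraries were required (8.40 percentage points, adjusted exact p = 0.156). It was also lost without the GATA6 library of DP A (6.74 percentage points, adjusted exact p = 0.250), of DP A1 (8.40, adjusted exact p = 0.0938) or of nEnd B12 (6.44, adjusted exact p = 0.0938). With equal peak numbers all 6 differences kept their signs and their adjusted p, but H3K27ac fell to 3.26 percentage points against late and 2.78 against transient sites, and H3K4me1 to 3.21 against transient sites. These libraries come from 3 culture conditions with 2 each, which are clones or experiments rather than known separate cultures of 1 clone, so the p-values measure the spread between these samples.

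In nEnd the order of early kept and late sites was split by mark. H3K27ac covered 54.2% of early kept and 64.1% of late sites on average, and H3K4me1 68.0% and 62.5%. Among sites in the stronger 50% of both nEnd GATA6 lists, H3K27ac was called in both nEnd libraries at 55.0% of early kept and 65.7% of late sites, and H3K4me1 at 63.2% and 59.8%. In DP cells, where late sites had no GATA6 peak, the same sites carried H3K27ac in 46.3% and 17.5% and H3K4me1 in 86.8% and 45.3%.

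The identity of the cultures was read from H3K27ac peaks within 1 kb of the starts of marker genes. In nEnd, 8 and 9 of 9 PrE markers and 3 and 4 of 8 pluripotency markers had a peak, and Sox2, Nanog, Esrrb and Dppa3 had none. In SOX2+ cells the counts were 1 and 0 of 9 and 7 and 6 of 8. DP cells had 8 of 8 pluripotency markers and 3 of 9 PrE markers, Gata6, Pdgfra and Dab2. The long lists of 2iLIF and NACL had 6 to 8 of 8 pluripotency and 6 to 9 of 9 PrE markers. Markers of trophoblast, fibroblasts and mesoderm had no peak in KOSR libraries, and in nEnd only Elf5 of the trophoblast list did, while 2iLIF and NACL lists had 0 to 4 of 5, 2 to 4 of 5 and 0 to 3 of 3.

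Early kept sites were also counted near known genes. Of 76 genes in 9 lists of pathway and lineage genes, 23 had an early kept site within 100 kb of a start, and 21 were the nearest gene of at least 1. Over all 21938 protein-coding genes, 2963 (13.5%) had an early kept site within 100 kb. By list the counts were 4 of 8 PrE transcription factors (50%), 6 of 10 basement membrane genes (60.0%), 5 of 14 genes of FGF, PDGF and ERK signalling (35.7%), 2 of 7 anterior endoderm genes (28.6%), 2 of 8 visceral endoderm transport genes (25%), 3 of 16 pluripotency genes (18.8%) and 1 of 6 formative genes (16.7%). None of the 4 endocytic receptor or 4 parietal endoderm genes had one. Late sites, which are more numerous, were within 100 kb of all 8 PrE transcription factors and all 10 basement membrane genes, and of 13864 of all protein-coding genes. Early kept sites with SOX2 were within 100 kb of 2649 protein-coding genes. These held 4 of 8 PrE transcription factors, 6 of 10 basement membrane genes and 8 of 14 FGF, PDGF and ERK genes. They also held 7 of 16 pluripotency, 3 of 6 formative and 3 of 4 endocytic receptor genes. In the remaining lists the counts equalled those of early kept sites. No list was tested.

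Gata6 itself, the PrE regulator, had 1 early kept site, chr18:11009260-11009834, 42574 bp upstream of its nearest start in intergenic DNA. Its GATA6 percentile was 64.6 in DP A and 22.7 in DP A1, without a peak in DP B, and 90.5 and 95.3 in nEnd B9 and B12. Neither mark was present there in any library of 2iLIF, NACL or SOX2+ cells, and both marks were present in DP cells and in both nEnd libraries of each. Within 100 kb of Gata6 there were also 6 late sites and 2 early kept sites with SOX2. Gata4, the related GATA factor, had an early kept site at chr14:63221717-63222104 in one of its introns, 8281 bp upstream of an internal start, with percentiles of 53.4 and 8.11 in DP A and A1 and 57.8 and 32.2 in nEnd. It lacked H3K4me1 in all 6 pluripotent libraries, carried H3K27ac in the 4 libraries of 2iLIF and NACL, and carried both marks in DP and in nEnd cells.

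Foxq1, a forkhead factor, had early kept sites 64050 and 24770 bp upstream. The first had GATA6 percentiles of 79.2, 76.3 and 0.647 in DP A, A1 and B and 96.5 and 99.1 in nEnd, and the second 20.4 and 8.48 in DP A and A1 and 97.9 and 99.2 in nEnd. Both lacked H3K4me1 in the 6 pluripotent libraries, carried it but not H3K27ac in DP cells, and carried both marks in all nEnd libraries. H3K27ac was also found in 1 NACL library at the first site, and in 1 library of 2iLIF and 2 of NACL at the second. Thus the strength in DP cells differed between these neighbours, while the mark calls in DP and nEnd cells did not. Sox7, an endoderm SOX factor, had an early kept site within 100 kb that lay nearer to another gene, while Sox17, Hnf4a and Foxa2 had none within 100 kb and 8, 3 and 20 late sites.

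Basement membrane genes showed other patterns. The sites of Nid2 (nidogen, a laminin-binding linker) and Lamc1 (a laminin chain) lay in introns of these genes, 8297 and 24242 bp upstream of internal starts. Both carried H3K4me1 in every library of all 5 conditions. Both had H3K27ac in DP cells and both nEnd libraries. Their GATA6 percentiles were 94.6, 88.9 and 78.5 in DP A, A1 and B at Nid2 and 53.9 and 35.9 in DP A and A1 at Lamc1, and 94.4 and 97.7 against 94.3 and 96.0 in nEnd B9 and B12. The site 6876 bp downstream of a start of Sparc, which encodes a secreted matrix protein, had H3K4me1 in DP cells alone and H3K27ac in both nEnd libraries.

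Sites at signalling genes differed in whether H3K27ac was present in DP cells, nEnd cells or both. Pdgfra encodes a receptor that marks PrE, and its early kept site lay far away, 205582 bp downstream of the start, with GATA6 percentiles of 99.7 and 99.8 in nEnd and 88.0, 87.0 and 17 in DP A, A1 and B. It carried H3K4me1 in every library of all 5 conditions and H3K27ac in DP cells and both nEnd libraries. Fgfr2, an FGF receptor, had sites 2255, 6411 and 125309 bp downstream of a start. The first 2 had both marks in DP cells and H3K27ac in 1 of 2 nEnd libraries, while the last had H3K4me1 alone in DP cells, both marks in both nEnd libraries of each and neither in pluripotent cells. Spry2 encodes a feedback inhibitor of receptor tyrosine kinase signalling, and none of its 3 sites had H3K27ac in nEnd, although those 62739 bp upstream and 94082 bp downstream had it in DP cells. The site of Dusp4, an ERK phosphatase, 53992 bp upstream, had both marks in DP cells, H3K4me1 in both nEnd libraries and H3K27ac in 1 of them.

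Fgfr1 and Fgfr3, also FGF receptors, had 1 site each. That of Fgfr1, 68460 bp upstream, was strong in DP cells, with percentiles of 93.4, 81.8 and 51.3 in A, A1 and B, and weak in nEnd, with 14.2 and 15.5. It carried H3K4me1 in DP cells and no mark in any other library. That of Fgfr3, 1223 bp upstream, had H3K4me1 in DP and both nEnd libraries and in no pluripotent library. H3K27ac was found there in 2 NACL libraries and 1 nEnd library.

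Among genes of later endoderm, Ttr, a carrier of thyroid hormone, had a site 16306 bp upstream with H3K4me1 in DP cells and nEnd and in no pluripotent library. Its H3K27ac was found in both nEnd libraries, 1 library of 2iLIF and 2 of NACL, but not in DP or SOX2+ cells. The site 2250 bp downstream of a start of Apoe, an apolipoprotein, carried both marks in DP cells and all nEnd libraries, and H3K4me1 in 2, 1 and 2 libraries of 2iLIF, NACL and SOX2+ cells. Dkk1, a secreted Wnt inhibitor of the anterior visceral endoderm, had a site 34866 bp downstream with both marks in DP cells and all nEnd libraries. In pluripotent cells this site had no H3K4me1, and H3K27ac in 1 library each of 2iLIF and NACL. Lhx1, a LIM homeodomain factor, had sites 67623 and 79155 bp upstream, both with H3K4me1 and without H3K27ac in nEnd. The site nearest to Dab2, an endocytic adaptor of endoderm, lay 366790 bp away.

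The early kept sites whose nearest gene was a pluripotency gene were those of Sox2, Zfp42 and Tfcp2l1. The site nearest to Sox2 lay 103322 bp downstream and ranked 1088 of 1089 by mean GATA6 percentile, with 2.98 and 26.4 in DP A and A1 and 8.82 and 36.8 in nEnd. It carried both marks in every pluripotent library and in DP cells, and in nEnd no H3K27ac and H3K4me1 in 1 of 2 libraries. That of Zfp42, a naive pluripotency marker, lay 26165 bp downstream, ranked 989 and had no mark in DP cells. Tfcp2l1, a naive pluripotency factor, had a stronger site in an intron, 21748 bp downstream of its start, with percentiles of 91.6 and 67.1 in DP A and A1 and 79.9 and 93.0 in nEnd, and both marks in every library of all 5 conditions. Pou3f1, a formative POU factor, had a site 11721 bp upstream with no mark in nEnd.

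**Figure D4:**
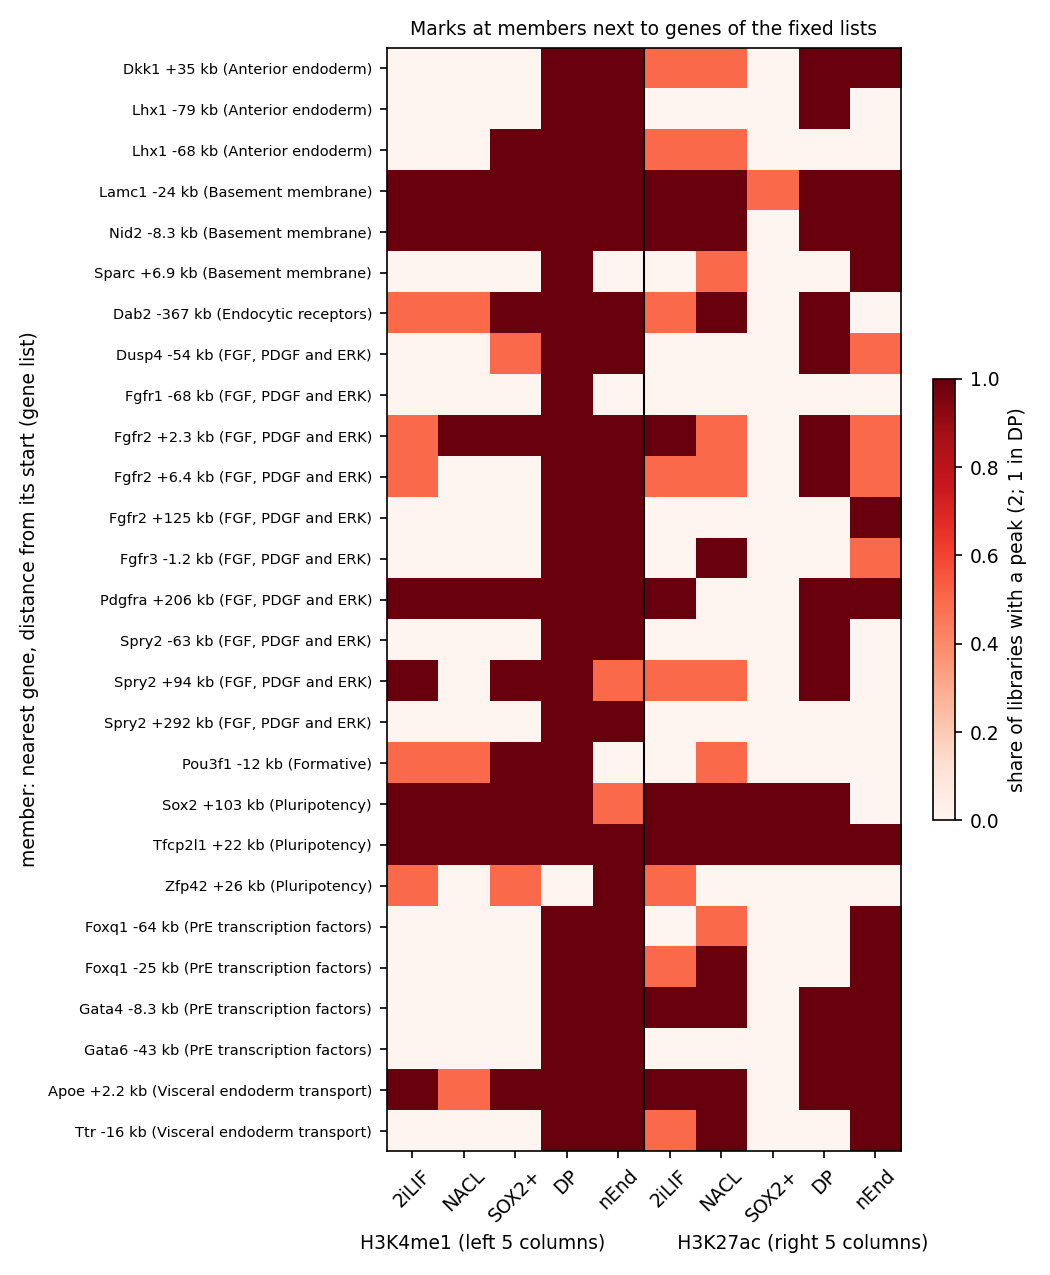
Share of libraries (0 to 1; 2 libraries per condition, 1 in DP) with an H3K4me1 peak (left 5 columns) or an H3K27ac peak (right 5 columns) at the early kept sites whose nearest gene is in one of the gene lists. Rows give the gene, the distance of the site from the nearest transcript start of that gene in kb (minus is upstream) and the list. The Gata6 row is filled in DP and nEnd and empty in 2iLIF, NACL and SOX2+ for both marks, and the Tfcp2l1 row is filled in all 10 columns.

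The 10 sites of the highest mean GATA6 percentile lay next to genes outside these lists. Their nearest genes were Car12 (a carbonic anhydrase, 14814 bp upstream), Ryk (a Wnt receptor, 26358 bp downstream), Prpf4b, Wwc2, Plekha6, Tmx1, Sgpp1, Rgs3, Tmem131 and Fn1, which encodes fibronectin. All had peaks of the 3 DP libraries and H3K4me1 in DP cells. The Car12 site, first of all 1089, had percentiles of 99.8, 99.3 and 97.1 in DP A, A1 and B and 98.7 and 99.6 in nEnd. It had no H3K4me1 in pluripotent cells, H3K27ac in 1 library each of 2iLIF and NACL, and both marks in DP and all nEnd libraries. The Ryk, Prpf4b, Wwc2, Rgs3 and Tmem131 sites carried H3K4me1 in both SOX2+ libraries as well as in DP and nEnd cells. The sites near Sgpp1, 35877 bp upstream, and Fn1, 262509 bp upstream, had no H3K27ac in DP or nEnd cells, with GATA6 percentiles of 96.5 and 95.6, and 81.3 and 98.6, in nEnd B9 and B12. Strong GATA6 signal in both cell types was thus found with and without H3K27ac.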

How the data were processed

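CUT&RUN peak lists of 35 libraries were used (5 of GATA6, 10 of SOX2, 20 of histone marks). The IgG samples, which the authors set against each experiment in peak calling, did not enter. Per the submitters' processing notes the authors used cutadapt 1.18, Bowtie2 2.3.4.1, SAMtools 1.9, Picard 2.9.1, bedtools 2.27.1, deepTools 3.2.0 and SEACR (version not given in the sources used here), with peaks on mm10 (GRCm38). The lists are named relaxed for histone marks and stringent for factors, while the methods give the opposite. The deposited signal of a peak is a sum of coverage whose scale differs between libraries, and it was turned into percentiles within a library. Read depth is unknown. Lists held 1378 to 401853 peaks, which limits what a library can show.

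Overlap meant at least 1 bp. The anchor of a region was the middle of the maximum of its highest-ranked GATA6 peak. Gene models were those of GENCODE M21, and bases were read from RefSeq's GRCm38.p6. Distances run from the anchor to the nearest start of a protein-coding transcript, and parts of genes were assigned in the order within 1 kb of a start, coding exon, untranslated region, other exon, intron. Shares per library were compared with exact permutation tests (2 times the smaller tail) and exact sign flips, both two-sided, with a threshold of 0.05. Exact binomial 95% intervals over regions (Clopper-Pearson) reflect counting error alone. The scripts, in Python 3 with numpy and scipy, were tested on simulated data.

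Named sites were those whose nearest gene is in a gene list, the 10 of the highest mean percentile of GATA6 signal (0 where a library had no peak) and those of the 5 genes with most sites. Sites and lists were chosen with earlier results of these data known. Results for 1 gene of the lists and 1 sequence string are not reported here. Alternatives covered overlap of 50%, equal peak numbers, the stronger 50% of peaks, 500 bp around the anchor, all 3 DP libraries, SOX2 peaks within 1 kb, distal sites, motif windows of 200 and 500 bp, starts of all biotypes, clone as a block, 1 set of libraries whose titles share a number, and each library left out.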

Additional observations from a re-analysis of the deposited data

Results flagged for a closer look

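The difference in H3K27ac between early kept and late sites had opposite signs in nEnd and in pluripotent libraries. Early kept minus late sites was 5.59 ± 2.50 percentage points (SD, n = 6) in pluripotent libraries, with 2.29 to 9.00 in each, and -9.88 ± 5.05 (SD, n = 2) in nEnd, with -13.4 and -6.31. The change between the groups was -15.5 percentage points. It was flagged because every nEnd library had the opposite sign to every pluripotent library. That selection fixed the exact permutation p at 0.0714, the smallest that 2 against 6 libraries allow, so this p adds no support. Late sites were defined by both nEnd GATA6 libraries and the absence of DP peaks, and the part of GATA6 signal strength in this difference was not tested beyond the values given for stronger sites.

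The H3K4me1 and H3K27ac libraries of experiment B that were assigned to no group, because their labels name different sorted populations, overlapped 60.8% and 15.7% of early kept sites, against 40.6% and 13.8% of all merged regions. They are listed here because no comparison used them.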

How the results depend on the processing

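Results were recomputed under 333 combinations of result and alternative, of which 277 kept the direction, the side of the threshold or the size of the reported value. Most of the other changes follow from the 6 libraries behind the sign-flip tests: leaving out 1 pluripotent library leaves 5, which cannot reach the threshold. Leaving out each library in turn gave differences of 3.72 to 6.93 percentage points for H3K27ac and 6.58 to 12.5 for H3K4me1 against late sites, 5.85 to 9.52 and 5.14 to 10.2 against transient sites, and -24.4 to -18.6 and -24.8 to -16.6 against early kept sites with SOX2. The number of early kept sites was 311 to 1383 without 1 GATA6 or SOX2 library. It fell to 606 with the stronger 50% of every list, and to 74 with equal GATA6 peak numbers, since both remove peaks, and to 311 with all 3 DP libraries, which is a stricter rule on the same peaks. H3K27ac against transient sites no longer passed with all 3 DP libraries (8.40 percentage points) and for sites over 1 kb from a start (7.21), nor without the GATA6 library of DP A (6.74), DP A1 (8.40) or nEnd B12 (6.44), and the cause was not tested. With equal peak numbers the H3K4me1 share of SOX2+ cells minus that of the naive media, 7.0 percentage points as reported and never past the threshold, turned to -1.35. The same setting moved H3K27ac in SOX2+ cells minus the naive media from -47.3 to -10.1, and lowered the H3K27ac differences to late and transient sites to 3.26 and 2.78 and that of H3K4me1 to transient sites to 3.21, with the same calls. The median distance fell to 8297 bp when starts of all gene biotypes were used, since this adds starts.

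With clone as replicate block, H3K27ac of early kept sites in nEnd minus the naive media stayed at -1.01 percentage points, with 2.43 within B9 and -4.45 within B12, less than the SD between naive libraries. Labels give no replicate numbers that pair the samples. Equal peak numbers lowered the DP shares to 39.7% for H3K4me1 and 18.4% for H3K27ac. Within clone B12, H3K27ac covered 60.1% and 61.7% of early kept sites in 2iLIF and NACL, against 7.53% and 8.36% in SOX2+ cells, and within experiment A H3K4me1 covered 86.4% in DP and 29.4% in SOX2+ cells.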
